A study of Rattus norvegicus with 15 samples.

Results

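Glucocorticoid response genes are genes whose transcription is known from other tissues to follow the adrenal steroid corticosterone, and they were followed here in the subfornical organ, a small sensory structure of the brain that lacks a blood-brain barrier. Their members were 31 genes chosen by symbol, and 30 of them had a probe set of their own among the 31099 probe sets of the array, 41 probe sets in all. Zbtb16 had none. Each gene was represented by its brightest probe set over the 15 arrays, and 27 genes exceeded the filter on dim probe sets, a mean log2 value of 5.11 over all arrays (a signal of 18.6). Mt1, Hif3a and Tat lay below it, so the tests cover 27 of the 31 genes, beside 11510 genes tested in the whole series.

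The study compared water deprivation, food deprivation and control in male Sprague Dawley rats aged 10 to 12 weeks, with 5 Affymetrix arrays per group and RNA pooled from 5 animals on each array, 25 animals per group. Food deprivation lasted 48 h for the food-deprived rats. The series text, read literally, gives that treatment for every condition, while the sample labels give it for the food-deprived samples alone. The length of water deprivation is not given in the sources used here. No feeding or drinking protocol is given for the control rats either. Each array is a separate pool, so the spread between arrays is a spread between pools, and animals within a pool cannot be told apart.

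Corticosterone enters the cell and binds the glucocorticoid receptor, which is held ready by a complex of heat shock proteins and co-chaperones and then moves to the nucleus to bind DNA. In rodents fasting and other stressors raise the circulating hormone, and astrocytes, oligodendrocytes, vessels and neurons all carry the receptor. The direct targets include Fkbp5, a co-chaperone that dampens the receptor, and the metallothioneins, small proteins that bind zinc and copper.

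Probe sets that read each end of the control transcripts Actb and Gapdh divided the arrays at a mean log2 5′/3′ ratio of -1, and this ratio reflects RNA integrity and amplification length. The high set of 7 held water-deprived arrays 1 and 2 and all 5 food-deprived arrays, and the low set of 8 held water-deprived arrays 3 to 5 and all 5 controls. Water-deprived array 3 had the lowest ratio, -2.81. With group and set in the same fit, only water deprivation spans both sets, so the set difference rests on water-deprived arrays 1 and 2 against arrays 3 to 5, array 3 among them. In it 6.48% of genes were higher and 8.09% lower in the high set at a limma adjusted p under 0.05, and 0 of the 27 members passed. No set held both food-deprived and control arrays, so within-set values of that comparison do not exist, and a fit that includes the set estimates it by way of water deprivation. Of 7 subfornical organ markers with a probe set, 6 exceeded the filter (Nos1, at a mean signal of 15.8, did not), and their summed signal was 965 to 2170 in water deprivation, 1127 to 1321 in food deprivation and 955 to 2134 in control. For 5 markers of neighbouring hypothalamus the summed signal was 251 to 281 in food deprivation and 1005 to 3691 in control. Oxt held 48.0% of it. In water deprivation it was 387 and 315 on arrays 1 and 2 and 3128, 3630 and 1021 on arrays 3 to 5. Every high array thus lay below every low array. Of 4 of these markers tested, 3 passed as lower in food deprivation minus control, beside 2.62% of all genes. This sum and the array set cannot be told apart, and its part in the differences given here was not tested.

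In food deprivation 4 of the 27 members rose against control and 0 fell. Over all genes tested 3.12% rose and 2.62% fell. The metallothionein Mt2A, the sulfotransferase Sult1a1, the small GTPase Rhob and the mTOR inhibitor Ddit4 were 1.40-fold (Rhob) to 1.92-fold (Sult1a1) higher. In water deprivation 0 members passed against control, although Sult1a1 was at 1.84-fold, and 0 members passed between water and food deprivation. Over all genes 0.00869% (1 gene) were higher and 0% lower in water deprivation minus control. Between water and food deprivation 0.0956% of all genes were higher and 0% lower. Both comparisons against control use the same 5 control arrays, so a control array that stands apart moves both. With the array set as a term 0 members passed in any of the 3 comparisons. In that fit 0.0434% of all genes passed in water deprivation minus control. In food deprivation minus control and in water minus food deprivation 0% did.

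**Figure D1:**
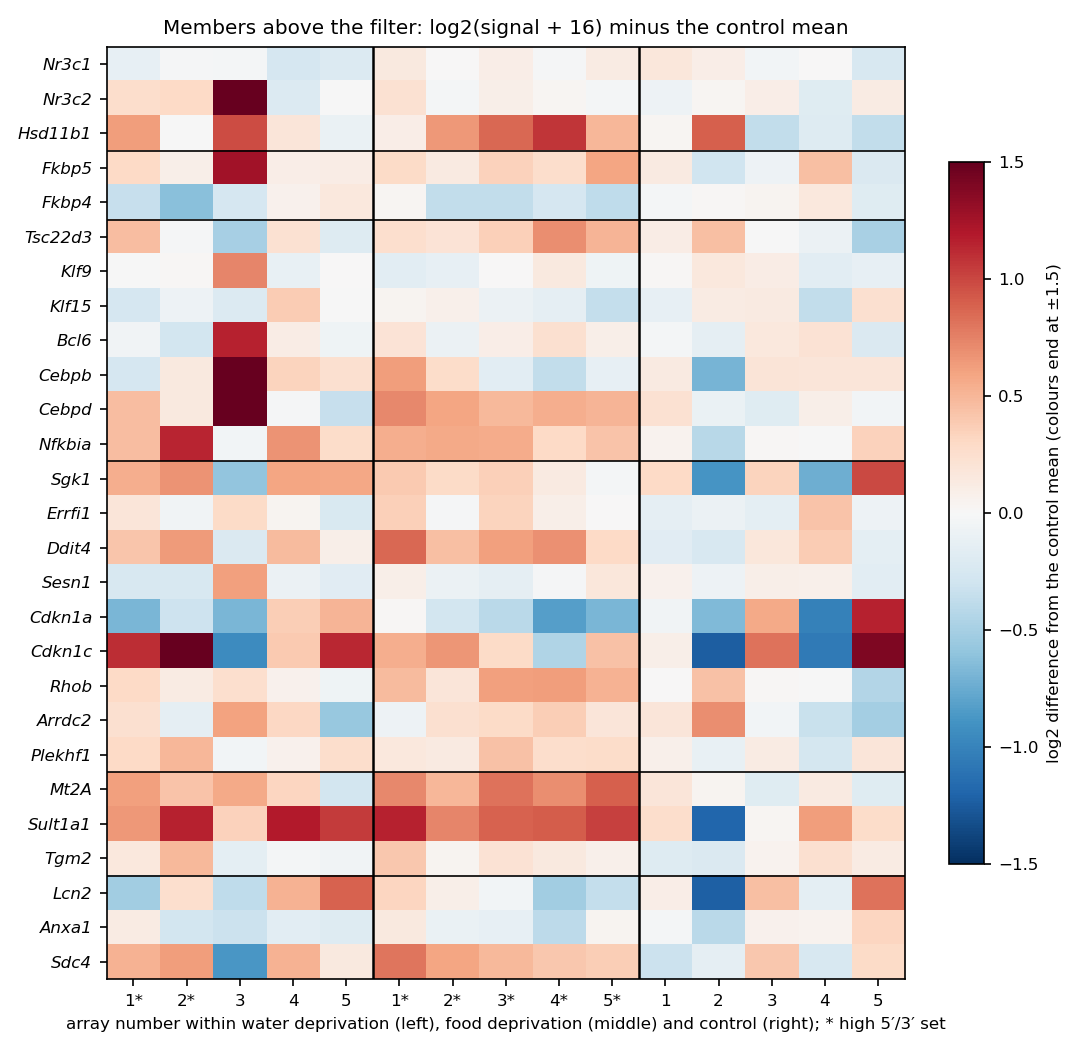
Heat map of the 27 tested members (down, grouped by role) on the 15 arrays (across: water deprivation, food deprivation, control), coloured by log2(signal + 16) minus the control mean, with asterisks on arrays of the high 5′/3′ set. Mt2A and Sult1a1 are above the control mean on all 5 food-deprived arrays, and water-deprived array 3 is the highest of its group for Nr3c2, Fkbp5, Bcl6, Cebpb and Cebpd.

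The metallothionein genes Mt1 and Mt2A lie 4958 bases apart on rat chromosome 19, on the minus strand, at chr19:10831959-10832975 and chr19:10837934-10838708 of the GRCr8 assembly. The proteins they encode store zinc and copper, and their genes are classical targets of both the glucocorticoid receptor and the metal-responsive factor Mtf1. The 250 bases upstream of each start, from RefSeq on GRCr8, are shown because both genes had a higher signal on every food-deprived array than on any control array and both windows hold repeats of a metal response core, TGCACNC or TGCGCNC, which is in capitals where either strand matches. The Mt1 window is chr19:10832976-10833225 and the Mt2A window chr19:10838709-10838958, both read on the minus strand.
Mt1: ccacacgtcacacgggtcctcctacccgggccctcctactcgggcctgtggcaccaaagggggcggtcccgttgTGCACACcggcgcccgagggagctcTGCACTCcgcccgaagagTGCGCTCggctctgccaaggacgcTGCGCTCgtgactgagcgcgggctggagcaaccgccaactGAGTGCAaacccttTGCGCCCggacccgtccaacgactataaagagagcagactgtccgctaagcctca
Mt2A: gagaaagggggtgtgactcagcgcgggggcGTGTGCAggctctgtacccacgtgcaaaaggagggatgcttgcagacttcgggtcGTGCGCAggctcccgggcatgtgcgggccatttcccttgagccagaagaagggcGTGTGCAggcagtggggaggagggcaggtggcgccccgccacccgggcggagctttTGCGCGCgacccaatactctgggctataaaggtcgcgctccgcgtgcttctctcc
The Mt1 window holds 6 matches and the Mt2A window 4. Of 33469 upstream windows of the same length, 20.6% hold at least 1 and 0.0747% hold 5 or more. The latter takes in Mt1 and not Mt2A, and the share with 4 or more was not computed. Of 25 members with a window 7 held a match, among them Rhob, Ddit4, Nfkbia, Nr3c1 and Hif3a with 1 each. A match is a stretch of letters and not a measured binding site.

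Mt2A had signals of 799, 682, 852, 789 and 907 on the food-deprived arrays, against 546, 494, 422, 526 and 420.5 on the control arrays. Every food-deprived array lay above every control array. The log2 difference was 0.73 (SE 0.15, n = 5 each, limma adjusted p = 0.00939), or 1.65-fold, where folds are on the log2(signal + 16) scale. The water-deprived arrays gave 743, 649, 716, 605 and 394, of which 4 exceeded the highest control and array 5 was below the lowest. Against control the difference was 0.33 (SE 0.15, limma adjusted p = 0.752), and against food deprivation it was -0.39 (SE 0.15, limma adjusted p = 0.212). Food deprivation minus control became 0.41 with the array set as a term (SE 0.24, limma adjusted p = 0.637). Mt2A was the only member to pass in food deprivation after each of the 10 arrays had been left out in turn, at log2 0.68 to 0.78.

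Mt1 was dim. Its signals were 23.0, 8.51, 8.47, 6.72 and 9.35 in water deprivation, 13.8, 13.9, 20.9, 14.4 and 13.6 in food deprivation and 1.71, 1.59, 1.77, 1.24 and 1.31 in control. All 10 deprived arrays lay above all 5 controls, among them water-deprived arrays 3 to 5 of the low 5′/3′ set. Hif3a, dimmer still, also had every food-deprived array (0.881 to 1.39) above every control (0.346 to 0.847). The part of the array set or of the background in these separations was not tested. Mt1 is below the filter, so it has no test among the 27. In a fit with no filter the log2 difference from control was 0.61 in water deprivation (SE 0.12, limma adjusted p = 0.330) and 0.83 in food deprivation (SE 0.12, limma adjusted p = 0.00291). Whether its probe set was above background on the control arrays is not known, since detection calls were not used, so the size of the change is not known either. A brighter probe set annotated to Mt1f, Ttr and Mt1 together was not assigned to a gene and was at -0.28 in water deprivation and -0.29 in food deprivation (SE 0.27, limma adjusted p = 0.852 and 0.533).

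Sult1a1, a phenol sulfotransferase that conjugates hormones, catecholamines and drugs, lies on rat chromosome 1 at chr1:190702592-190706112. Its upstream window, chr1:190706113-190706362 on the minus strand, is shown because it is the only one among those of 25 members that holds the glucocorticoid receptor half-site AGAACA on either strand.
Sult1a1: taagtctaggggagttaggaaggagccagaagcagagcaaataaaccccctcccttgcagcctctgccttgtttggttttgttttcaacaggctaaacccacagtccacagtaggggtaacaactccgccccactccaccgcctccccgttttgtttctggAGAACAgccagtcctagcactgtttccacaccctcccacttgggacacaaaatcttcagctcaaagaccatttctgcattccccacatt
The half-site, in capitals, occurs in 17.5% of the 33469 windows. The full element, an inverted repeat of this half-site around a 3-base spacer, occurs in 0.0120% of windows and in 0 of the members' windows. Receptor binding was not measured, and no match says only that these letters are missing from this stretch.

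The Sult1a1 signals were 561, 803, 449.8, 823 and 741 in water deprivation, 800.2, 593, 661, 676 and 734 in food deprivation and 425, 145, 357, 553 and 427 in control. Food-deprived arrays all exceeded the highest control, and 4 of 5 water-deprived arrays did. Food deprivation minus control was log2 0.94 (SE 0.26, limma adjusted p = 0.0394), or 1.92-fold. Water deprivation minus control was nearly as large at 0.88 (SE 0.26), yet its limma adjusted p was 0.672 in a comparison where 1 gene in all passed. The groups on water and on food deprivation differed by -0.06 (SE 0.26, limma adjusted p = 0.935), with a 95% interval of -0.64 to 0.51. Sult1a1 kept its size with the array set as a term, 0.86 in water deprivation (SE 0.31, limma adjusted p = 0.766) and 0.90 in food deprivation (SE 0.47, limma adjusted p = 0.614). Control array 2, at 145, was the lowest of the 15, and without it food deprivation minus control was 0.64. The call stood without control array 2 or control array 4 and was lost without any of the other 8 arrays compared, at limma adjusted p values up to 0.0839.

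**Figure D2:**
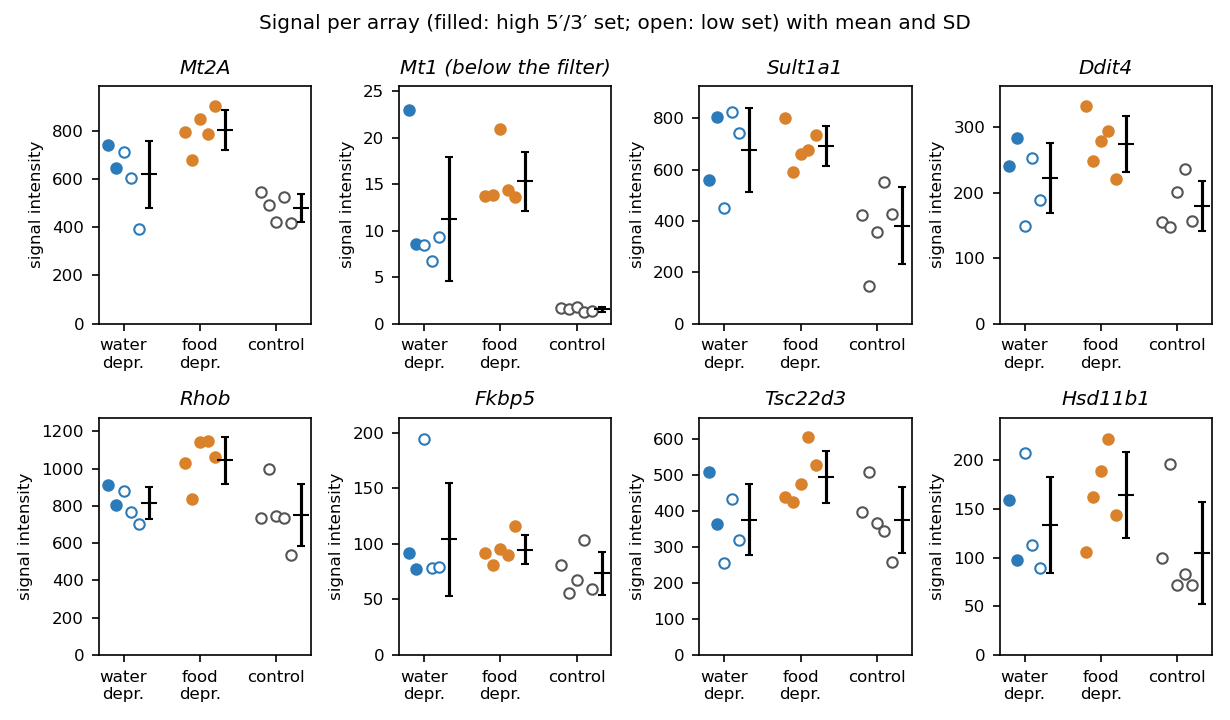
Signal intensity (linear, from 0) of 8 members on each array, for water deprivation, food deprivation and control, with mean and SD (n = 5) to the right of each group; filled points are arrays of the high 5′/3′ set and open points of the low set. Food-deprived arrays lie above every control for Mt2A, Mt1 and Sult1a1, and water-deprived array 3 stands alone for Fkbp5 at 194.

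Rhob, a small GTPase of endosomes and the cytoskeleton whose transcript turns over quickly, had signals of 1030.4, 837, 1141, 1149 and 1065 in food deprivation, against 737, 1000.4, 745, 733 and 537 in control. Of the food-deprived arrays 4 exceeded the highest control. It rose by log2 0.49 (SE 0.14, limma adjusted p = 0.0402), or 1.40-fold. The water-deprived arrays gave 912, 806, 881, 770.2 and 701, a difference of 0.14 from control (SE 0.14, limma adjusted p = 0.855) and of -0.35 from food deprivation (SE 0.14, limma adjusted p = 0.228). Food deprivation minus control was 0.35 with the array set as a term (SE 0.24, limma adjusted p = 0.658). The call stood without food-deprived array 2 or control array 2 and was lost without any of the other 8 arrays, at limma adjusted p values up to 0.0944.

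Rhob also followed the summed signal of 12 neuron markers over the 15 arrays (r = 0.74, permutation p = 0.00175; rho = 0.69, permutation p = 0.00523; adjusted p = 0.0218 and 0.0403). The correlation was 0.67 in the 7 high arrays and 0.99 in the 8 low arrays, and 0.56 without the 2 arrays farthest from the median of the marker sum. That sum was 5169 to 9089 in water deprivation, 6034 to 10725 in food deprivation and 3494 to 12295 in control. Of the 11 neuron markers tested, 8 lay above 0 in food deprivation minus control and 0 passed. Rhob followed the sum of 8 astrocyte markers as well (r = 0.73, permutation p = 0.00188; rho = 0.70, permutation p = 0.00477; adjusted p = 0.0218 and 0.0392), at 0.72 in the high set, 0.96 in the low set and 0.68 without the 2 farthest arrays. The astrocyte sum was 9956 to 14411 in water deprivation, 13621 to 15067 in food deprivation and 9819 to 16419 in control, and of its 8 markers 6 lay above 0 in food deprivation minus control and 0 passed. With the oligodendrocyte marker sum Rhob correlated too (r = 0.67, permutation p = 0.00628; rho = 0.70, permutation p = 0.00479; adjusted p = 0.0378 and 0.0392), at 0.47 in the high set, 0.48 in the low set and 0.72 without the 2 farthest arrays. In bulk tissue more cells of a type and more RNA per cell cannot be told apart, and the part of either in the rise of Rhob was not tested.

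Ddit4, also known as Redd1, restrains mTOR signalling and is induced by glucocorticoids, hypoxia and energy stress. Its signals were 333, 249, 279, 294 and 221 in food deprivation, against 156, 147, 201, 236 and 158 in control, so that 4 food-deprived arrays exceeded the highest control. The rise was log2 0.58 (SE 0.17, limma adjusted p = 0.0435). In water deprivation the signals were 241, 284, 149.5, 253 and 189, a difference of 0.28 (SE 0.17, limma adjusted p = 0.760). Food deprivation minus control was 0.17 with the array set as a term (SE 0.27, limma adjusted p = 0.868). The call stood without food-deprived array 5 or control array 4 and was lost without any of the other 8 arrays, at limma adjusted p values up to 0.102. Ddit4 correlated with the summed signal of 10 endothelial and mural markers (r = 0.66, permutation p = 0.00696; rho = 0.69, permutation p = 0.00576; adjusted p = 0.0389 and 0.0424), with 0.77 in the high set, 0.53 in the low set and 0.76 without the 2 farthest arrays. That marker sum was 795 to 1077 in water deprivation, 991 to 1277 in food deprivation and 827 to 1072 in control. Of its 10 tested markers 2 rose in food deprivation, beside 3.12% of all genes. The part of this sum in the Ddit4 difference was not tested.

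The 4 members that rose are 14.8% of the 27 tested, beside 3.12% of all genes tested that rose and 2.62% that fell in the same comparison. Across members the median log2 difference in food deprivation was 0.20 with 21 of 27 above 0, beside a median of 0.03 and 54.5% above 0 over all genes. At an unadjusted p under 0.05, 10 members were counted, 37.0% of the 27, beside 21.3% of all genes. The median over all probe sets depended on scaling, since centring each array on its median moved it by -0.10 log2. Under that centring the median over the members was 0.10, beside -0.06 over all probe sets (0.05 as deposited), and Mt2A alone passed. The split of all probe sets that passed moved with it, 1037 higher and 817 lower as deposited, 652 higher and 1178 lower after median centring, and 822 higher and 974 lower after quantile normalization. With the array set as a term 0% of genes passed in food deprivation. The members' median was then 0.17 with 19 of 27 above 0, beside a median of 0.008 and 51.0% above 0 over all genes. The sign of 12 members turned, and the share of all genes whose sign turned was not computed.

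In water deprivation 0 of 27 members passed against control, beside 0.00869% of genes higher (1 gene) and 0% lower. At an unadjusted p under 0.05, 3 members were counted (11.1%, beside 6.59% of all genes), Sult1a1, Nfkbia and Mt2A, all above control. The members' median was 0.17 with 20 of 27 above 0, beside 49.9% of all genes above 0. With the array set as a term the comparison rests on 3 water-deprived and 5 control arrays of the low set. In that fit 0.0434% of genes passed (5 genes) and no member was among them. The smallest limma adjusted p of a member was 0.766, and 21 of 27 lay above 0, beside 47.9% of all genes.

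Between water and food deprivation 0 members passed, beside 0.0956% of genes higher in water deprivation and 0% lower, and 0% in either direction with the array set as a term. The members' median was -0.04 with 12 of 27 above 0, beside a median of -0.02 and 45.5% above 0 over all genes. At an unadjusted p under 0.05, 4 members were counted (14.8%, beside 12.5% of all genes), all lower in water deprivation: Mt2A, Rhob, Tsc22d3 at -0.41 (SE 0.18, limma adjusted p = 0.291) and Nr3c1 at -0.19 (SE 0.09, limma adjusted p = 0.308). The difference of all 4 was smaller with the array set as a term, at -0.20, -0.27, -0.18 and -0.14.

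**Figure D3:**
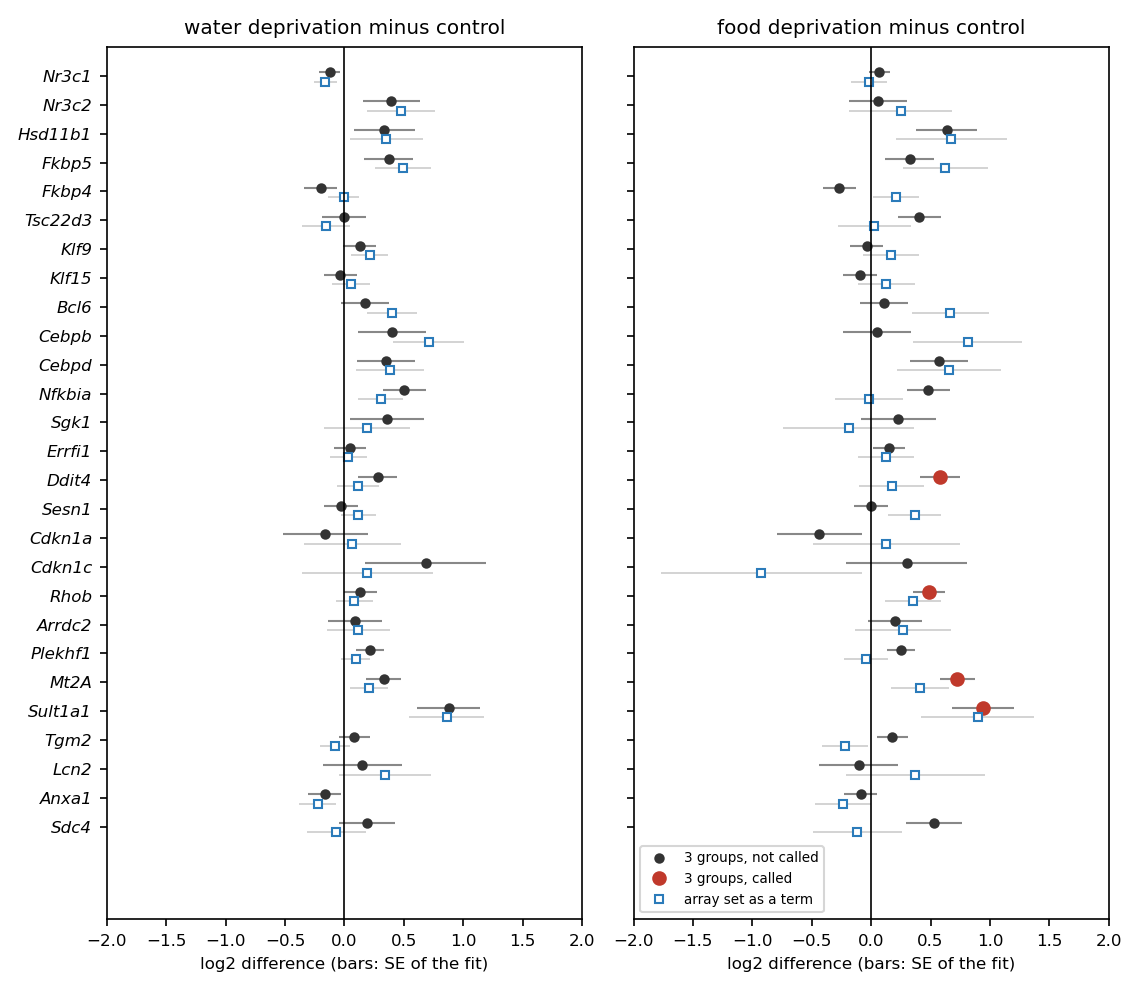
Log2 difference from control (SE bars) of the 27 tested members in water deprivation and food deprivation, in the fit of the 3 groups (circles, red where the limma adjusted p is under 0.05) and with the array set as a term (squares). The 4 red points, Ddit4, Rhob, Mt2A and Sult1a1, are in food deprivation, and the square for Sult1a1 stays near its circle at 0.90 while that for Ddit4 is at 0.17.

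The receptor genes themselves did not pass in any comparison. Nr3c1, which encodes the glucocorticoid receptor, had signals of 262, 282, 279.7, 238 and 247 in water deprivation, 317, 288, 308, 281 and 312 in food deprivation and 324, 308, 276, 288 and 240.2 in control. Its difference from control was -0.12 in water deprivation (SE 0.09, 95% interval -0.32 to 0.07) and 0.07 in food deprivation (SE 0.09, 95% interval -0.13 to 0.27), with limma adjusted p values of 0.804 and 0.672. Both intervals exclude a change of 1.5-fold in either direction.

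Nr3c2 encodes the mineralocorticoid receptor, which binds corticosterone with higher affinity and also serves aldosterone in salt-sensing cells. Its signals were 137, 141, 378, 94.7 and 111 in water deprivation, 133, 109, 119, 114 and 109 in food deprivation and 105, 114, 121, 96.7 and 122 in control. Water-deprived array 3 stood far above the other 14 arrays. The difference in water deprivation was 0.40 (SE 0.24, limma adjusted p = 0.761) and 0.09 without that array, and in food deprivation it was 0.06 (SE 0.24, limma adjusted p = 0.915).

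Hsd11b1 encodes the enzyme that regenerates active corticosterone from its inert 11-keto form inside cells. It had signals of 159, 97.4, 207, 113 and 89.7 in water deprivation, 106, 163, 189, 222 and 144 in food deprivation and 99.3, 196, 72.1, 83.6 and 71.6 in control. All 5 food-deprived arrays exceeded the control mean, but control array 2 lay among them. The difference in food deprivation was 0.63 (SE 0.26, limma adjusted p = 0.133), and without control array 2 it was 0.86 and passed (limma adjusted p = 0.0343). In water deprivation the difference was 0.34 (SE 0.26, limma adjusted p = 0.820). Hsd11b1 followed the neuron marker sum over the 15 arrays (r = 0.79, permutation p = 0.00015; rho = 0.86, permutation p = 0.00012; adjusted p = 0.00432 and 0.00856), with 0.96 in the high set, 0.77 in the low set and 0.78 without the 2 farthest arrays. It followed the astrocyte marker sum too (r = 0.73, permutation p = 0.00151; rho = 0.80, permutation p = 0.00066; adjusted p = 0.0204 and 0.0119), at 0.75 in each set and 0.73 without the 2 farthest arrays. Control array 2 held the highest neuron sum, 12295, and the part of neuron or astrocyte content in Hsd11b1 was not tested.

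Fkbp5, the co-chaperone whose induction by the hormone limits the receptor's own activity, gave 2 readings. Its brighter probe set had signals of 92.2, 77.2, 194, 78.2 and 79.1 in water deprivation, 91.4, 80.6, 95.8, 89.5 and 116 in food deprivation and 80.6, 55.5, 67.5, 104 and 59.2 in control. It did not pass in either comparison, at 0.37 in water deprivation (SE 0.21, limma adjusted p = 0.753) and 0.33 in food deprivation (SE 0.21, limma adjusted p = 0.335). Without water-deprived array 3 the water value was 0.15.

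The dimmer Fkbp5 probe set had signals of 43.1, 35.7, 27.1, 31.2 and 23.5 in water deprivation, 34.2, 51.9, 47.9, 43.5 and 45.3 in food deprivation and 27.7, 21.1, 23.8, 31.3 and 18.5 in control. Every food-deprived array exceeded every control on it, and it rose by log2 0.58 (SE 0.13, limma adjusted p = 0.0147). In water deprivation it was at 0.24 (SE 0.13, limma adjusted p = 0.752). Once the array set was a term, food deprivation minus control was 0.63 on the brighter probe set (SE 0.36, limma adjusted p = 0.630) and 0.23 on the dimmer (SE 0.20, limma adjusted p = 0.734). Water-deprived array 3, which was far above its group on the brighter probe set, was the second lowest of its group on the dimmer. The other co-chaperone, Fkbp4, which carries the receptor along microtubules, was at -0.20 in water deprivation and -0.27 in food deprivation (SE 0.14, limma adjusted p = 0.797 and 0.236), and its food deprivation value turned to 0.21 with the array set as a term (SE 0.20, limma adjusted p = 0.755).

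Tsc22d3, or Gilz, is a leucine zipper protein through which glucocorticoids restrain NF-kB and AP-1. Its signals were 509, 363, 255, 432 and 318 in water deprivation, 439, 425, 475, 604 and 527 in food deprivation and 398, 508, 366, 344 and 257 in control. It was at -0.0030 in water deprivation (SE 0.18, limma adjusted p = 0.998) and 0.41 in food deprivation (SE 0.18, limma adjusted p = 0.172), and at 0.03 in food deprivation with the array set as a term (SE 0.31). Over the 15 arrays it correlated with the summed signal of 8 oligodendrocyte markers (r = 0.90, permutation p = 2e-05; rho = 0.83, permutation p = 0.00028; adjusted p = 0.00324 and 0.00856). Within the sets the correlation was 0.59 (7 high arrays) and 0.94 (8 low arrays), and 0.80 without the 2 farthest arrays. The oligodendrocyte sum, of which Mbp held 30.9%, was 4951 to 13445 in water deprivation, 11239 to 16051 in food deprivation and 5572 to 16236 in control. All 8 of these markers lay above 0 in food deprivation minus control and 0 passed, and their part in the Tsc22d3 values was not tested.

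The Kruppel-like factors are early targets of the receptor in brain and muscle. Klf9 had signals of 519.9, 530.0, 883, 484 and 525 in water deprivation, 468, 480.0, 526, 579 and 499 in food deprivation and 527, 586, 564, 468 and 479 in control. The groups overlapped, apart from water-deprived array 3 at 883. Its differences were 0.13 in water deprivation (SE 0.14, limma adjusted p = 0.864), which became -0.02 without that array, and -0.04 in food deprivation (SE 0.14, limma adjusted p = 0.899). Klf15, which drives amino acid breakdown in fasting, was at -0.03 in water deprivation and -0.09 in food deprivation (SE 0.14, limma adjusted p = 0.970 and 0.727), and its dimmer probe set was at 0.19 in water deprivation and 0.42 in food deprivation (SE 0.22, limma adjusted p = 0.880 and 0.250).

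Nfkbia, the inhibitor that holds NF-kB in the cytoplasm, had signals of 181, 299.5, 123, 212 and 158 in water deprivation, 193, 197, 195, 161 and 176 in food deprivation and 133, 91.4, 129, 126 and 167 in control. In food deprivation 4 of 5 arrays exceeded the highest control and in water deprivation 3 did. The differences were 0.50 in water deprivation (SE 0.18, limma adjusted p = 0.719) and 0.48 in food deprivation (SE 0.18, limma adjusted p = 0.105), and neither passed. They were 0.30 in water deprivation (SE 0.19) and -0.02 in food deprivation (SE 0.28) with the array set as a term. Nfkbia followed the summed signal of 9 choroid plexus and ependymal markers (r = 0.77, permutation p = 0.00095; rho = 0.81, permutation p = 0.00037; adjusted p = 0.0192 and 0.00856), at 0.79 in the high set, 0.55 in the low set and 0.74 without the 2 farthest arrays, and the part of those cells in its values was not tested.

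Cebpd, a transcription factor of acute stress and adipocyte differentiation, was the remaining tested member with no overlap between food deprivation and control, beside Mt2A and Sult1a1. These are 3 of the 27. The share of all genes without overlap was not computed, and the 2 groups lie in different array sets. The Cebpd signals were 68.9, 52.2, 159, 45.2 and 32.6 in water deprivation, 86.0, 77.3, 70.2, 74.4 and 72.2 in food deprivation and 56.5, 41.8, 38.5, 49.5 and 44.0 in control. The 5 food-deprived arrays were close to each other, while the water-deprived arrays spanned both other groups. The differences were 0.35 (SE 0.24, limma adjusted p = 0.797) in water deprivation and 0.57 (SE 0.24, limma adjusted p = 0.147) in food deprivation. When the 10 arrays of the comparison were fitted alone, Cebpd, Nfkbia and the heparan sulfate proteoglycan Sdc4 passed as well, 7 members in all. In that fit 7.97% of all genes were higher and 6.69% lower, beside 3.12% and 2.62% in the fit of all 15 arrays.

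Cebpb, a relative of Cebpd in the same stress response, was at 0.40 in water deprivation (SE 0.29, limma adjusted p = 0.799), with a signal of 290.4 on water-deprived array 3 and 71.8 to 117 on the other 4, and at 0.05 in food deprivation (SE 0.29, limma adjusted p = 0.940). The repressor Bcl6 was at 0.17 in water deprivation and 0.11 in food deprivation (SE 0.20, limma adjusted p = 0.878 and 0.786). Hif3a, a hypoxia factor induced by glucocorticoids in several tissues, had signals of 0.742 to 1.99 in water deprivation, 0.881 to 1.39 in food deprivation and 0.346 to 0.847 in control, all far below the filter.

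Among the kinase, growth and stress genes, Sgk1 encodes a kinase that promotes sodium transport and is induced by both corticosteroid receptors. Its signals were 947, 1041, 421, 982 and 973 in water deprivation, 851, 794, 833, 708 and 629.7 in food deprivation and 796, 343, 814, 381 and 1301 in control. The control arrays spanned the whole range of the deprived arrays. The differences were 0.36 in water deprivation (SE 0.31, limma adjusted p = 0.834) and 0.23 in food deprivation (SE 0.31, limma adjusted p = 0.695), with 95% intervals of -0.33 to 1.04 and -0.46 to 0.91. Both intervals, from the fit of the 3 groups, exclude a fall of 1.5-fold in Sgk1, and neither excludes a rise of 1.5-fold. With the array set as a term the differences were 0.19 (SE 0.36) in water deprivation and -0.19 (SE 0.55) in food deprivation. No interval was computed in that fit, so a fall is not excluded there.

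The cell cycle inhibitor Cdkn1c varied as widely, with signals of 1191, 1821, 275, 716 and 1203 in water deprivation, 799.9, 869, 665, 394 and 741 in food deprivation and 577, 220.3, 966, 251 and 1459 in control. It was at 0.68 in water deprivation (SE 0.51, limma adjusted p = 0.814) and 0.30 in food deprivation (SE 0.51, limma adjusted p = 0.759), which turned to -0.92 with the array set as a term (SE 0.84, limma adjusted p = 0.747). Cdkn1c followed the choroid plexus and ependymal marker sum (r = 0.82, permutation p = 9e-05; rho = 0.82, permutation p = 0.00033; adjusted p = 0.00432 and 0.00856), at 0.89 in the high set, 0.82 in the low set and 0.74 without the 2 farthest arrays. Ttr held 57.1% of that sum, which was 3109 to 11012 in water deprivation, 5820 to 10178 in food deprivation and 4362 to 7815 in control. The choroid plexus borders the organ, and the part of its RNA in the spread of Cdkn1c was not tested. Cdkn1a, or p21, was at -0.16 in water deprivation and -0.44 in food deprivation (SE 0.36, limma adjusted p = 0.937 and 0.472), with control signals from 116 to 573.

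The remaining genes of signalling and turnover stayed closer to control. Errfi1, a feedback inhibitor of the EGF receptor, was at 0.05 in water deprivation and 0.15 in food deprivation (SE 0.13, limma adjusted p = 0.951 and 0.502). Sesn1, a sestrin that curbs mTORC1, was at -0.03 in water deprivation and 0.0021 in food deprivation (SE 0.14, limma adjusted p = 0.977 and 0.995). Arrdc2, an alpha-arrestin, was at 0.09 in water deprivation and 0.20 in food deprivation (SE 0.23, limma adjusted p = 0.943 and 0.616). Plekhf1, a lysosome-associated protein, was at 0.22 in water deprivation and 0.25 in food deprivation (SE 0.12, limma adjusted p = 0.752 and 0.186), and these values were 0.10 and -0.04 with the array set as a term.

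Of the enzymes and secreted or surface proteins that remain, Tgm2, the tissue transglutaminase, was at 0.08 in water deprivation and 0.18 in food deprivation (SE 0.13, limma adjusted p = 0.910 and 0.418). Tat, the liver tyrosine aminotransferase that was an early model of induction by the hormone, had signals from 0.732 to 1.82 in the deprived arrays and 0.763 to 1.35 in control, far below the filter. Anxa1, an anti-inflammatory annexin, was at -0.17 in water deprivation and -0.09 in food deprivation (SE 0.14, limma adjusted p = 0.828 and 0.731). Sdc4 was at 0.19 in water deprivation and 0.53 in food deprivation (SE 0.24, limma adjusted p = 0.886 and 0.171), and at -0.12 in food deprivation with the array set as a term. It followed the choroid plexus and ependymal marker sum (r = 0.85, permutation p = 0.00011; rho = 0.82, permutation p = 0.00023; adjusted p = 0.00432 and 0.00856), at 0.56 in the high set, 0.84 in the low set and 0.67 without the 2 farthest arrays, and the part of those cells in Sdc4 was not tested.

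Lcn2, a secreted siderophore-binding protein of reactive astrocytes and choroid plexus, had signals of 91.4, 167, 102, 205 and 268 in water deprivation, 176, 147, 133, 91.0 and 104 in food deprivation and 149, 49.9, 194, 123 and 256 in control. It was at 0.15 in water deprivation and -0.11 in food deprivation (SE 0.34, limma adjusted p = 0.937 and 0.881), and the groups overlapped throughout. It ran against the neuron marker sum (r = -0.85, permutation p = 0.00016; rho = -0.90, permutation p = 1e-05, the smallest that 100000 permutations can give; adjusted p = 0.00432 and 0.00162), at -0.84 in the high set, -0.86 in the low set and -0.77 without the 2 farthest arrays. Lcn2 ran against the astrocyte marker sum as well (r = -0.71, permutation p = 0.00277; rho = -0.70, permutation p = 0.00484; adjusted p = 0.0258 and 0.0392), at -0.38 in the high set, -0.89 in the low set and -0.76 without the 2 farthest arrays. Over all 27 members and 6 marker sums, 162 correlations, 22 passed by both measures after Benjamini-Hochberg adjustment, 7 with the neuron sum, 6 with astrocyte, 4 with choroid plexus and ependymal, 2 each with oligodendrocyte and endothelial and mural, and 1 with microglia and macrophage markers. Of those not given above, Arrdc2 rose with the neuron and astrocyte sums (r = 0.82 and 0.78). Tgm2 rose with endothelial (0.70) and Plekhf1 with choroid plexus markers (0.66). Sgk1 (-0.70 and -0.67) and Cdkn1c (-0.73 and -0.75) ran against both neuron and astrocyte. Cdkn1a ran against neuron (-0.74) and Cdkn1c against microglia markers (-0.72). Marker and member signals come from the same arrays and share their scaling. The permutations ignored group and array set, so a shift shared by a group or a set also enters these correlations and their p values. Genes outside the members were not correlated with these sums, so no share over all genes stands beside the 22.

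**Figure D4:**
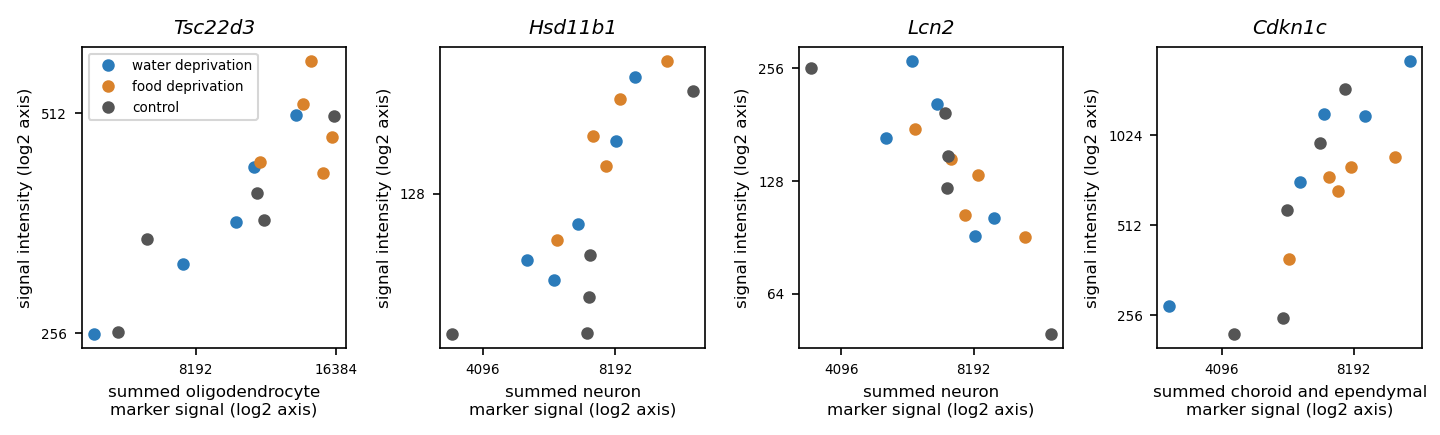
Signal of Tsc22d3, Hsd11b1, Lcn2 and Cdkn1c (vertical, log2 axis) against the summed signal of a cell type's markers on the same array (horizontal, log2 axis), 1 point per array, coloured by water deprivation, food deprivation and control. Tsc22d3 (r = 0.90), Hsd11b1 (r = 0.79) and Cdkn1c (r = 0.82) rise with the marker sum and Lcn2 (r = -0.85) falls, over arrays of all 3 groups.

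A list of 22 other genes known as glucocorticoid targets was read beside the members, and 21 were tested. The list was chosen with earlier results of these data known. In food deprivation 5 passed as higher and 2 as lower, at a median of 0.11 with 13 of 21 above 0. Over all genes 3.12% passed as higher, 2.62% passed as lower and 54.5% lay above 0. Angptl4, a lipase inhibitor of fasting, rose by 0.80 (SE 0.13, limma adjusted p = 0.00333) and the secreted matrix protein Ctgf by 0.56 (SE 0.13, limma adjusted p = 0.0171). The glucose transporter Slc2a1 and glutamine synthetase Glul rose by 0.51 each (limma adjusted p = 0.0125 and 0.0397). The fifth was the perilipin Plin4, at a mean signal of 33.5 in food deprivation, 15.3 in water deprivation and 14.1 in control. It exceeded the filter of 18.6 only through the food-deprived arrays, so its call carries no weight here. Foxo1, a transcription factor of fasting metabolism, fell by 0.92 on the log2 scale (SE 0.27, limma adjusted p = 0.0449), and Mknk2, a kinase of translation initiation, fell by 0.53 (SE 0.16, limma adjusted p = 0.0498). In water deprivation 0 of the 21 passed, and Ctgf was at 0.46 and Angptl4 at 0.44 (limma adjusted p = 0.604 and 0.633). With the array set as a term 0 of these 7 passed in food deprivation. Angptl4 was at 0.85, Slc2a1 at 0.32, Ctgf at 0.28, Glul at 0.19, Mknk2 at 0.00065, Plin4 at -0.16 and Foxo1 at -0.17 (limma adjusted p from 0.471 for Angptl4 to 0.999 for Mknk2).

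Of 10 tested genes of the chaperone complex that holds the receptor, 2 rose in food deprivation, beside 3.12% of all genes. The 2 were the phosphatase Ppp5c (log2 1.02, SE 0.26, limma adjusted p = 0.0261) and the Hsp70 cofactor Bag1 (log2 0.35, SE 0.09, limma adjusted p = 0.0298). Ppp5c was at -0.01 and Bag1 at 0.19 with the array set as a term. In water deprivation 0 of the 10 passed. Among 9 tested cofactors of the receptor 0 passed in either comparison, with medians of -0.04 in water deprivation and -0.12 in food deprivation. Only 2 of 12 genes of the hormone axis and steroid metabolism exceeded the filter, H6pd and Abcb1a, and neither passed.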

How the data were processed

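Per the labels' protocols, RNA of the subfornical organ was pooled from 5 animals per array, amplified and hybridised to 15 Affymetrix rat arrays. The authors deposited linear signal intensity for each probe set, and GCOS 1.2 is named in the submitters' processing notes, which give neither its role nor a scaling target. On the table itself every array has a trimmed mean of 100.0 (2% trimmed at each end), with unequal quantiles. Values were used as log2(signal + 16) with no further normalization. Of the 31099 probe sets, 57 are controls, 20832 have 1 gene symbol, 436 several and 9780 none in the supplied platform annotation, and probe sets with several symbols were assigned to no gene. Probe sets whose mean exceeded the 30th percentile, 21729 of them, were tested with limma 3.58.1 in R 4.3.3. A single fit held the 3 groups (12 residual degrees of freedom, 11 with the array set as a term), with a variance trend, two-sided moderated statistics and Benjamini-Hochberg adjustment over all tested probe sets of a comparison, at a threshold of 0.05. SE is that of the fit. Arrays give no counts, so the number of arrays limits the precision.

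Correlations used log2 values and 100000 permutations, two-sided, adjusted over 162. Upstream sequences and gene positions are those of RefSeq on GRCr8, and 25 of the 31 members had an upstream window. Tested members are all named, with full statistics for those that passed and for Fkbp5, Sgk1, Tsc22d3, Nfkbia, Klf9, Nr3c1, Nr3c2 and Hsd11b1. The members, gene lists, array sets and tests were chosen with earlier results of these data known. Alternatives were median centring, quantile normalization, an offset of 1 or 64, a filter at the 50th percentile or none, no variance trend, the 10 compared arrays alone, the replicate number as a block, the array set as a term, 1 array set alone, the mean of a gene's probe sets, and each array left out. The fits were tested on simulated data. Python 3.11.15 with matplotlib 3.10.9, pandas 2.3.3 and numpy 2.4.6 drew the figures.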

Additional observations from a re-analysis of the deposited data

Results flagged for a closer look

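Within each group of 5 arrays, the signal of each tested member was checked for an array that stands apart (Dixon ratio above 0.71). Of 81 groups 8 held one, where chance gives about 1 in 20 groups. Water-deprived array 3, the array with the lowest 5′/3′ ratio, accounted for 6 of the 8. It was the highest of its group for Nr3c2 (377.568, the others 94.7 to 141), Fkbp5 (194.482, the others 77.2 to 92.2), Klf9 (882.58, the others 484 to 530.0), Bcl6 (321.735, the others 109.6 to 148) and Sesn1 (301.931, the others 159.5 to 180.1). It was the lowest for Sgk1 (421.47, the others 947 to 1041). The same array had the lowest choroid and ependymal marker sum of the 15 (3109) and the lowest oligodendrocyte sum (4951). Control array 2 was the lowest of its group for Cebpb (48.6952, the others 99.5 to 104). Control array 4 was the highest of its group for Errfi1 (193.23, the others 125 to 132).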

How the results depend on the processing

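In food deprivation against control 4 members were higher. That count was 1 with median centring, 7 with the 10 compared arrays fitted alone, 2 with the replicate number as a block (Mt2A and Sult1a1), 0 with the array set as a term, and 1 to 4 when each array was left out. Median centring moved every difference between food deprivation and control by the same -0.10 log2. The 10 arrays alone gave the same differences with other SE, as for Nfkbia at 0.48 (SE 0.13, beside 0.18 in the main fit). The cause of the other shifts was not tested. Under the other 7 settings the count was 4 or, with no filter, which adds Mt1, 5. The counts of members lower in food deprivation and of members higher or lower in the other comparisons were 0 in every alternative. The replicate numbers do not pair the arrays: deviations of same-numbered arrays correlated at -0.36 to 0.37, so the replicate block has no design behind it and changed no other count. Of 780 alternatives of the 12 genes given with full statistics, 721 kept direction and side of the threshold, 33 lost the call, 2 gained it and 24 changed sign. None of the sign changes touched a value past the threshold. In water deprivation minus control, Tsc22d3 turned to 0.0017 with quantile normalization and to 0.03 to 0.12 without water-deprived array 3 or 5 or control array 1 or 2 (range over arrays left out -0.12 to 0.12), and Klf9 to -0.023 without water-deprived array 3 (-0.023 to 0.19). In food deprivation minus control, Klf9 turned to 0.0043 with quantile normalization, to 0.0027 without control array 2 (range -0.083 to 0.0027) and to 0.17 with the array set as a term, which also turned Sgk1 to -0.19, Nfkbia to -0.015 and Nr3c1 to -0.020. Median centring turned Nr3c1 to -0.031 and Nr3c2 to -0.044 there and Sult1a1 to 0.030 in water minus food deprivation. In water minus food deprivation Fkbp5 turned to -0.13 in the high set alone or with the array set as a term and to -0.15 as the mean of its probe sets. Leaving out arrays gave -0.18 to 0.12 for Fkbp5, -0.14 to 0.16 for Nfkbia and -0.14 to 0.070 for Sult1a1. Median centring moved the members' median to 0.10 in food deprivation minus control and to 0.06 in water minus food deprivation. The median over all probe sets moved as well, to -0.06 and 0.05. The array set and food deprivation cannot be told apart within a set, detection above background was not assessed, and the arrays are pools.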
